A study of Mus musculus with 8 samples.

Results

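Endothelial cells line every blood and lymphatic vessel, and 32 genes that mark these cells or act in them were followed in mouse brown adipose tissue (BAT). The 32 were taken by gene symbol from a list, and all 32 were found among the 49452 genes of the deposited table. RNA from whole BAT of male C57BL/6 mice was sequenced in 8 libraries, 2 in each of 4 groups. The cold experiment compared mice kept at 22 °C (22C, replicates 4 and 7) with mice kept at 4 °C for 24 h (4C, replicates 2 and 11), and the methods give an age of 10 to 12 weeks and food removal for the last 4 h in the cold. The diet experiment compared a high-fat diet (HFD, replicates 2 and 6) with a control diet (CD, replicates 6 and 8) in mice of 32 weeks that had eaten these diets for 28 weeks. The methods call the CD food a control diet and the sample labels call it chow, and whether the 22C mice were also fasted is not given in the sources used here. No group carried a transgene or deletion. The study asked which RNAs follow BAT function, and the comparisons here ask how the vessel lining's genes stood after cold and after a high-fat diet.

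BAT burns fuel to make heat and is among the most densely vascularized fat depots, since its vessels bring in oxygen, glucose and fatty acids and carry heat away. Endothelial cells hold together through adherens and tight junctions, sense growth factors and blood flow through their own receptors, and keep their identity through transcription factors of the ETS and SOXF families. Lymphatic endothelium, a separate lineage, is set by the factor Prox1 and carries the receptor Flt4.

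The proximal promoters are shown first because the 32 genes include 3 ETS factors (Erg, Fli1 and Ets1) and 3 SOXF factors (Sox7, Sox17 and Sox18), which bind the letters GGAA and ACAAT. A RefSeq promoter on GRCm38.p6 was matched for 16 of the 32 genes. Each sequence covers the 250 bases before the RefSeq start, 5′ to 3′ on the strand of the gene, and capitals mark GGAA and ACAAT on either strand (TTCC and ATTGT when read on the other strand). For Egfl7 the RefSeq start lies 1069 bases downstream of the deposited gene start, and for Flt4 416 bases. Their windows thus lie inside the genes whose FPKM are given. Those of Aqp1 (chr6:55336049-55336298), Egfl7 (chr2:26580833-26581082), Myct1 (chr10:5593478-5593727) and Cd34 (chr1:194938571-194938820), all on the plus strand, are printed because the first 3 hold a doubled core, GGAAGGAA, and because the RNAs of Aqp1 and Cd34 are among those that differed most between the diets.
Aqp1: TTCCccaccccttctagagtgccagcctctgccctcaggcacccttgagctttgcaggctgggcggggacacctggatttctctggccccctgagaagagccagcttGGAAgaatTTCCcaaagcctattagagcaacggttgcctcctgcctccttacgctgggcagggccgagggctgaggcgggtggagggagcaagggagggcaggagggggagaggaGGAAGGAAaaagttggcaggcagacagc
Egfl7: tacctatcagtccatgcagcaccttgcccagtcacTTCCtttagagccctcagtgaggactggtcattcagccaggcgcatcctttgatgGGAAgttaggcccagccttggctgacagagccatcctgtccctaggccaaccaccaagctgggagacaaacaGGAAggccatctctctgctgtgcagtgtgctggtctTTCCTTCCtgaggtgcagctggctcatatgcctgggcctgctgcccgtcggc
Myct1: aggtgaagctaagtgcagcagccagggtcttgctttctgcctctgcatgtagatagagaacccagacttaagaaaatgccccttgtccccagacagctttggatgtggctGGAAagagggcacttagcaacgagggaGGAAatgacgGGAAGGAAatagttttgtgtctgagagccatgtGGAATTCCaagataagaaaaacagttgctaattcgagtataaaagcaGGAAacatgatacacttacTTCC
Cd34: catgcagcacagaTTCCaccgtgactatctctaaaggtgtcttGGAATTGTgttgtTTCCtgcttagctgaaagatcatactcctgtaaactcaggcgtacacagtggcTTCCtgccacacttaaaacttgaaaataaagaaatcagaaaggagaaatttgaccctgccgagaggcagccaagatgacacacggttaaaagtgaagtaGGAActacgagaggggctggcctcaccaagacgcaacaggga
GGAA occurred in 14 of the 16 promoters (87.5%) and in 93.2% of all 18231 promoters of the same length, with a median of 4.5 matches per promoter among the 16 and 3 among all. The doubled core GGAAGGAA occurred in 3 of 16 (18.75%) and in 2.75% of all promoters, and each of its matches also counts as GGAA matches. ACAAT occurred in 4 of 16 (25%), among them Cd34, and in 25.3% of all promoters (17.2% of the 8088 of genes with a mean of at least 1 rescaled FPKM, the unit defined next, in either comparison). These counts describe letters in a window and were not tested.

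Expression is given as FPKM, fragments per kilobase of transcript scaled to sequencing depth by the authors, rescaled so that the autosomal messenger and long noncoding RNA genes of every library have the same sum, which multiplied the libraries by 0.786 to 1.28. Fold changes are on the scale of log2(rescaled FPKM + 1), which understates the change of low genes. The satellite-repeat gene Gm10800 exceeded 100 FPKM in 1 library of every group, namely replicate 4 of 22C, replicate 11 of 4C, replicate 8 of CD and replicate 2 of HFD. These 4 are named satellite-high here, and the remaining 4 satellite-low. Genes of the X chromosome were all listed at 0 in both 22C libraries and in CD replicate 6, and 779 to 1175 of them were above 0 in the other 5 libraries. All 32 endothelial genes are autosomal, but whatever set these 3 libraries apart cannot be told apart from the 22C group in the cold comparison. Mitochondrial genes made 0 and 15.5% of the summed FPKM in 22C and 37.6 and 58.6% in 4C. Their share was 16.2 and 62.3% in CD and 53.9 and 43.4% in HFD, and its part in the endothelial values was not tested. The sample descriptions give CD replicate 6 an identifier that begins like those of the cold experiment, and the other 3 diet libraries share another beginning. The total number of fragments is not given, but steps between low values put 1 fragment on a transcript of 2000 bases at 0.00438 to 0.00605 FPKM, so that the endothelial genes rested on about 8 fragments (Prox1 in CD replicate 6) to 25609 fragments (Aqp1 in 22C replicate 4). Because the tissue was sequenced in bulk, fewer endothelial cells and less RNA per endothelial cell cannot be told apart. The labels number the samples of a group and do not say that each came from a separate mouse, so the p-values measure the spread between these samples, which may be technical.

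The pan-endothelial genes were readily detected, so BAT held the RNA that the list's name calls for. Summed over the 32 genes, rescaled FPKM was 402 and 369 in 22C, 294 and 392 in 4C, 221 and 239 in CD, and 382 and 382 in HFD. Both CD libraries were thus below every other library, and the HFD libraries were within the range of the 2 cold-experiment groups. The 12 brown adipocyte markers (Ucp1, Cidea, Adipoq and others) summed to 4293 to 4849 rescaled FPKM in 22C and 8943 to 9186 in 4C. In the diet experiment their sum was 6611 to 7430 in CD and 4992 to 5814 in HFD. Cold mice and diet mice differed in age and feeding, so no test was made between the 2 experiments.

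Egfl7, which encodes a secreted protein of the vessel wall and hosts the microRNA miR-126, was the most abundant of the 32 per length of transcript, with a mean of 74.0 rescaled FPKM over the 8 libraries, although Aqp1 was above it in both HFD libraries and in 22C replicate 4. The gene Agpat2, on the opposite strand and at up to 735 FPKM, overlaps 64 exonic bases of Egfl7 (1.79%), and its part in the level of Egfl7 was not tested. The values of Egfl7 were 94.9 and 96.5 in 22C, 66.7 and 93.0 in 4C, 50.5 and 44.0 in CD, and 67.8 and 78.5 in HFD. Aqp1, a water channel of capillary endothelium, followed with a mean of 58.4, and its groups lay further apart than those of Egfl7. Pecam1, an adhesion molecule of endothelial cell contacts, had 26.8 and 23.9 in 22C, 24.8 and 37.5 in 4C, 25.4 and 25.7 in CD, and 38.0 and 39.3 in HFD. Cdh5, the VE-cadherin of adherens junctions, had 23.0 and 24.1 in 22C, 13.5 and 24.7 in 4C, 7.02 and 19.0 in CD, and 23.9 and 12.4 in HFD. The 2 libraries of CD, of HFD and of 4C lay so far apart for Cdh5 that no order of these groups held in every library. Cldn5, the claudin of endothelial tight junctions, had 11.4 and 17.1 in 22C, 16.4 and 25.3 in 4C, 10.1 and 13.8 in CD, and 13.6 and 23.3 in HFD. Esam, an adhesion molecule of tight junctions, had 19.0 and 14.2 in 22C, 15.7 and 25.7 in 4C, 7.35 and 13.1 in CD, and 19.3 and 16.1 in HFD. By mean, Cdh5 (18.5), Cldn5 (16.4) and Esam (16.3) are neighbours whose library values overlapped, and their order is not set by these data.

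Emcn, a sialomucin of capillaries and veins (mean 12.4), Cd34, a sialomucin of capillary endothelium that adipocyte progenitors carry too (11.4), and Eng, a coreceptor for ligands of the TGF-β family (10.3), came next. Ets1, Ptprb, Tie1, Fli1, Icam2, Ecscr, Mmrn2 and Sox17 had means of 5.25 to 8.26, and Robo4, Sox18, Lyve1, Rasip1, Erg, Nos3, Plvap and Clec14a of 2.28 to 4.46. Myct1, Vwf, Sox7, Nostrin and Flt4 lay at 1.06 to 1.91, and Tal1, a factor shared with blood progenitors, at 0.548. Prox1, the lymphatic determinant, stayed at 0.0405 and 0.0150 in 22C, 0.0833 and 0.0584 in 4C, 0.00792 and 0.248 in CD, and 0.0698 and 0.0176 in HFD. It missed the filter of 0.1 FPKM in 2 of 4 libraries in both comparisons, so 31 of the 32 genes were tested in each.

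**Figure D1:**
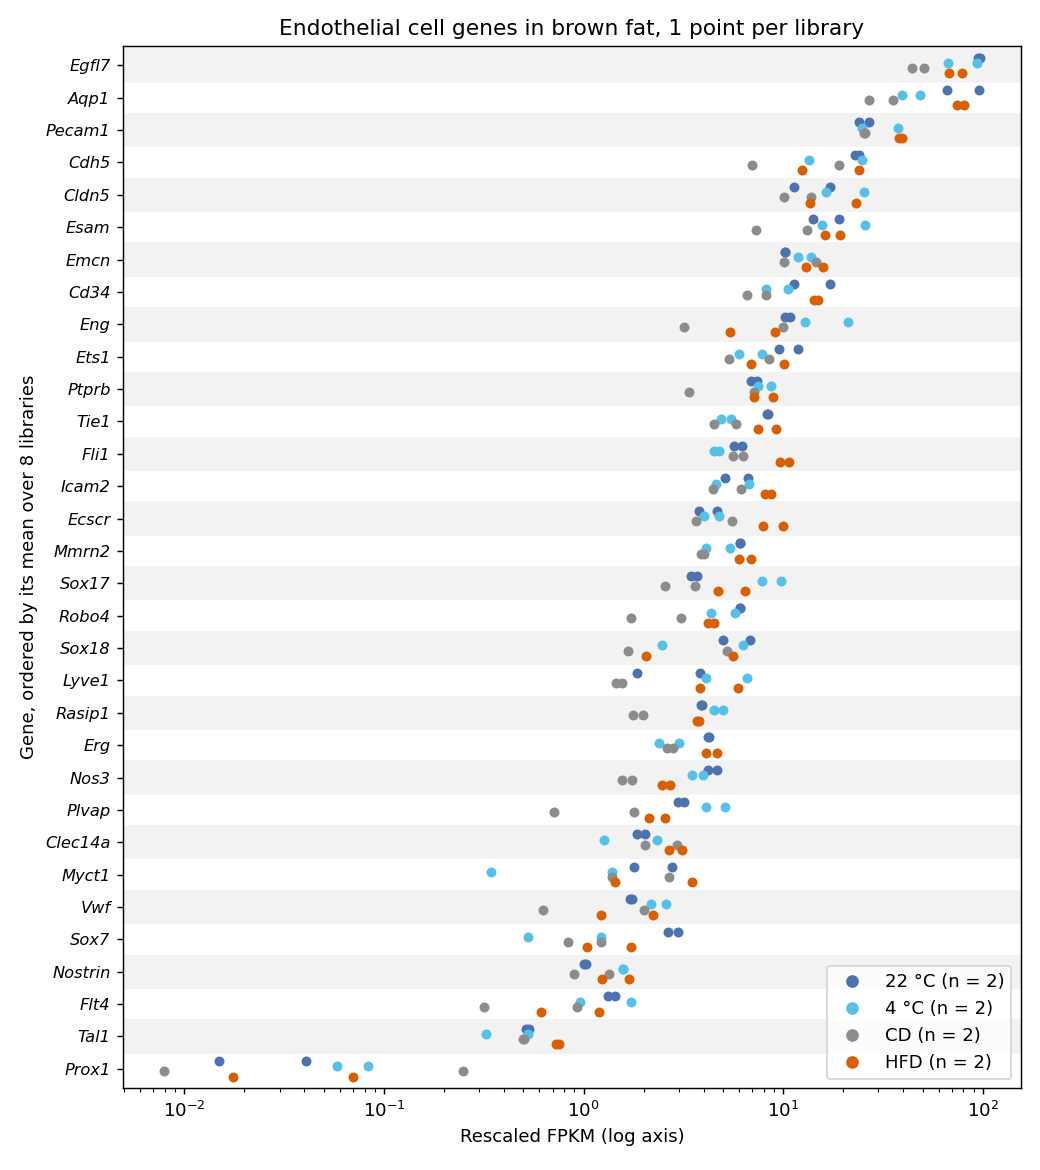
Rescaled FPKM (log axis) of the 32 endothelial cell genes in 8 libraries, 1 point per library, coloured by group (n = 2 each) and ordered by the mean over all libraries. Egfl7 (mean 74.0) and Aqp1 (58.4) lead, Prox1 is lowest, and the CD points lie to the left for most genes.

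After 24 h in the cold, the SOXF factor Sox17 rose and the endothelial genes did not move in one direction. Sox17, which acts in the differentiation of arteries, had 3.44 and 3.72 rescaled FPKM at 22 °C and 9.72 and 7.85 at 4 °C. The groups did not overlap, with a mean of 8.79 ± 1.32 against 3.58 ± 0.198 (SD, n = 2). The log2 fold change was 1.09 (SE 0.16), with an adjusted p of 0.0383 in limma with Benjamini-Hochberg adjustment over 17470 genes. It was the 1 endothelial gene of 31 past the threshold (adjusted p under 0.05 and a change of 2-fold or more), a threshold that 3.34% of all genes tested passed. The adjusted p ranged from 0.0156 to 0.166 over the alternatives, and the call was lost with FPKM as deposited, with the sum of all autosomal genes, with no filter and without any 1 of the 4 libraries. A processed transcript on the opposite strand, Gm37587, overlaps 16.8% of the exonic bases of Sox17 and reached 0.189 FPKM at most.

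The other SOXF factors did not follow Sox17. Sox7 had 2.65 and 2.98 rescaled FPKM at 22 °C and 0.524 and 1.22 at 4 °C, lower in both cold libraries. Its log2 fold change was -1.05 (SE 0.21). The adjusted p of 0.0557 was just short of the threshold, which Sox7 passed when all 8 libraries shared 1 fit (adjusted p = 0.0445). Sox18 had 5.01 and 6.81 at 22 °C against 2.46 and 6.27 at 4 °C, and the groups overlapped. Among the ETS factors, Erg had 4.21 and 4.25 at 22 °C and 2.38 and 2.99 at 4 °C. Erg, Fli1 and Ets1 were each lower in both cold libraries, with log2 fold changes of -0.51, -0.29 and -0.57 and adjusted p-values of 0.104, 0.216 and 0.131, and Fli1 turned to 0.059 with FPKM as deposited. Of the 7 transcription factor genes tested, Sox17 alone had a log2 fold change above 0.

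Aqp1 had 96.1 and 66.2 rescaled FPKM at 22 °C and 39.5 and 48.3 at 4 °C. The groups did not overlap, at a log2 fold change of -0.85 (SE 0.25) and an adjusted p of 0.0967. Myct1, a membrane protein gene of endothelial and blood stem cells, had 1.78 and 2.76 at 22 °C and 0.342 and 1.39 at 4 °C (log2 fold change -0.85, SE 0.32, adjusted p = 0.154, and -1.27 to -0.44 with 1 library left out). Tie1, a receptor tyrosine kinase that modulates angiopoietin signalling through Tek, had 8.36 and 8.31 at 22 °C and 4.87 and 5.45 at 4 °C (log2 fold change -0.60, SE 0.14, adjusted p = 0.065). The 22 °C libraries of Tie1 were nearly equal, with an SD of 0.0363. None of these 3 genes passed the threshold, and each was lower in both cold libraries.

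Higher in the cold without passing the threshold were Lyve1, Eng and Cldn5. Lyve1, a hyaluronan receptor of lymphatic endothelium and of some tissue macrophages, had 3.83 and 1.85 at 22 °C and 6.59 and 4.09 at 4 °C (log2 fold change 0.75, SE 0.33, adjusted p = 0.204). Eng had 10.2 and 10.8 at 22 °C and 12.8 and 21.2 at 4 °C (0.61, SE 0.26, adjusted p = 0.187). For Lyve1 and Eng both cold libraries were the higher ones, and for Cldn5 the groups overlapped (0.52, SE 0.29, adjusted p = 0.286). With 1 library left out the log2 fold changes ran from 0.36 to 1.13 for Lyve1, 0.26 to 0.95 for Eng and 0.22 to 0.81 for Cldn5. Plvap, which builds the diaphragms of fenestrated capillaries, and Nostrin, which traffics the nitric oxide synthase Nos3, were higher in both cold libraries by 0.46 and 0.35 on the log2 scale. Nos3 itself had 4.18 and 4.64 at 22 °C and 3.97 and 3.51 at 4 °C. An antisense gene, Gm15587, overlaps 25.2% of the exonic bases of Nos3, and 3 other genes overlap parts of Rasip1 (Izumo1 covers 20.4%), and whether counting used the strand of the directional libraries is not given in the sources used here. Flt4, the receptor for the lymphatic growth factor Vegfc, had 1.33 and 1.44 at 22 °C against 0.964 and 1.73 at 4 °C, with no separation.

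Over the 31 genes tested, 9 were higher in both cold libraries, against 18.6% of all genes, and 12 were lower in both, against 44.3% of all genes. The median log2 fold change was -0.10, and the median over all genes was also -0.10. With FPKM as deposited the balance turned, with 17 higher and 6 lower in both (37.9% and 20.6% of all genes), a median of 0.17 for the 31 and 0.07 for all genes. With the sum of all autosomal genes 4 were higher and 4 lower in both. The median of the 31 was 0.14 without 4C replicate 2 and -0.28 without 4C replicate 11. By role, the 11 junction and adhesion genes had a median of -0.06, the 5 receptor and phosphatase genes -0.04, the 7 transcription factor genes -0.45 and the 7 genes of vessel tone, permeability and secretion 0.22. With 2 libraries against 2, an exact permutation test of a single gene cannot give a p below 0.33, and none was run.

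The related lists outside the 32 hold other endothelial genes and ligands that act on endothelium. They had 24, 28, 14 and 6 genes tested, some of them shared between lists. Of these genes, 4 fell past the threshold in the cold and none rose past it, where 1.56% of all genes fell past it and 1.78% rose. In a list of 27 angiogenic receptors and ligands (24 tested), 2 fell, while 5 were higher in both cold libraries, against 18.6% of all genes, and 10 lower in both, against 44.3%. Angpt1, the ligand of the receptor Tek that keeps vessels quiescent, had 7.02 and 5.21 rescaled FPKM at 22 °C and 1.11 and 0.853 at 4 °C, and fell by 1.84 (log2; SE 0.19, adjusted p = 0.0299). Aplnr, the apelin receptor of veins and sprouting endothelium, had 2.14 and 2.96 at 22 °C and 0.111 and 0.134 at 4 °C, and fell by 1.65 (SE 0.15, adjusted p = 0.026). Nrp2 (-0.93, adjusted p = 0.051), Tek (-0.86, adjusted p = 0.0578) and Vegfb (-0.86, adjusted p = 0.0514) were lower in both cold libraries and missed the threshold, while Pgf (0.69), S1pr1 (0.65) and Adm (0.61) were higher in both. In a list of 31 other pan-endothelial and capillary genes (28 tested), Mcam and Bcl6b fell past the threshold. Mcam, an adhesion molecule of endothelium and pericytes, had 23.2 and 21.3 at 22 °C and 9.25 and 8.78 at 4 °C and fell by 1.21 (SE 0.14, adjusted p = 0.034). Bcl6b had 6.37 and 3.78 at 22 °C and 1.29 and 1.34 at 4 °C and fell by 1.36 (SE 0.24, adjusted p = 0.0461). Meox2, a homeobox factor, was lower in both cold libraries (-0.78, adjusted p = 0.0924). Rgcc (1.08, adjusted p = 0.0915), Grrp1 (0.97, adjusted p = 0.0387) and Ramp3 (0.53, adjusted p = 0.0402) were the largest differences upward in that list and did not meet both parts of the threshold. The calls of Angpt1, Aplnr, Mcam and Bcl6b were lost in 5, 4, 7 and 9 of the alternatives tried. Upward calls were gained by Grrp1 in 3 alternatives and by Adm, Pgf and Ramp3 with a pseudocount of 0.1 alone. Among 14 arterial and venous genes Lrg1 (-0.84) and Heyl (-0.70) were lower after Aplnr, and Fbln5 (0.38), Vcam1 (0.34) and Gja5 (0.25) were the highest. With 1 library left out Lrg1 ran from -1.14 to -0.53, Heyl from -0.96 to -0.43, Meox2 from -1.06 to -0.51 and S1pr1 from 0.40 to 0.89. Of 6 lymphatic genes tested none passed, with Nrp2, Pdpn (-0.23) and Vegfc (-0.14) lowest and Itga9 (0.21), Mmrn1 (0.15) and Reln (0.08) highest.

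Markers of other cells were followed for the same libraries. The 11 skeletal muscle markers tested were all higher in both cold libraries (median log2 fold change 2.89, Myl1 past the threshold), and their sum was 163 to 674 rescaled FPKM at 22 °C and 1889 to 3392 at 4 °C. Pericyte and smooth muscle markers had a median of 0.33 (6 of 12 higher and 4 lower in both), fibroblast and progenitor markers -0.32 (6 of 12 lower in both) and macrophage markers 0.01 (1 of 12 higher and 1 lower in both). Sums over these lists were 132 to 133 against 120 to 127, 251 to 390 against 218 to 279, and 97.3 to 132 against 93.0 to 152. Of 9 lymphocyte and pan-leukocyte markers, 8 were lower in both cold libraries, and no listed marker was at 0 in all 4 libraries. Among all genes tested, 18.6% were higher and 44.3% lower in both cold libraries. The part of these cells in the endothelial values was not tested.

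**Figure D2:**
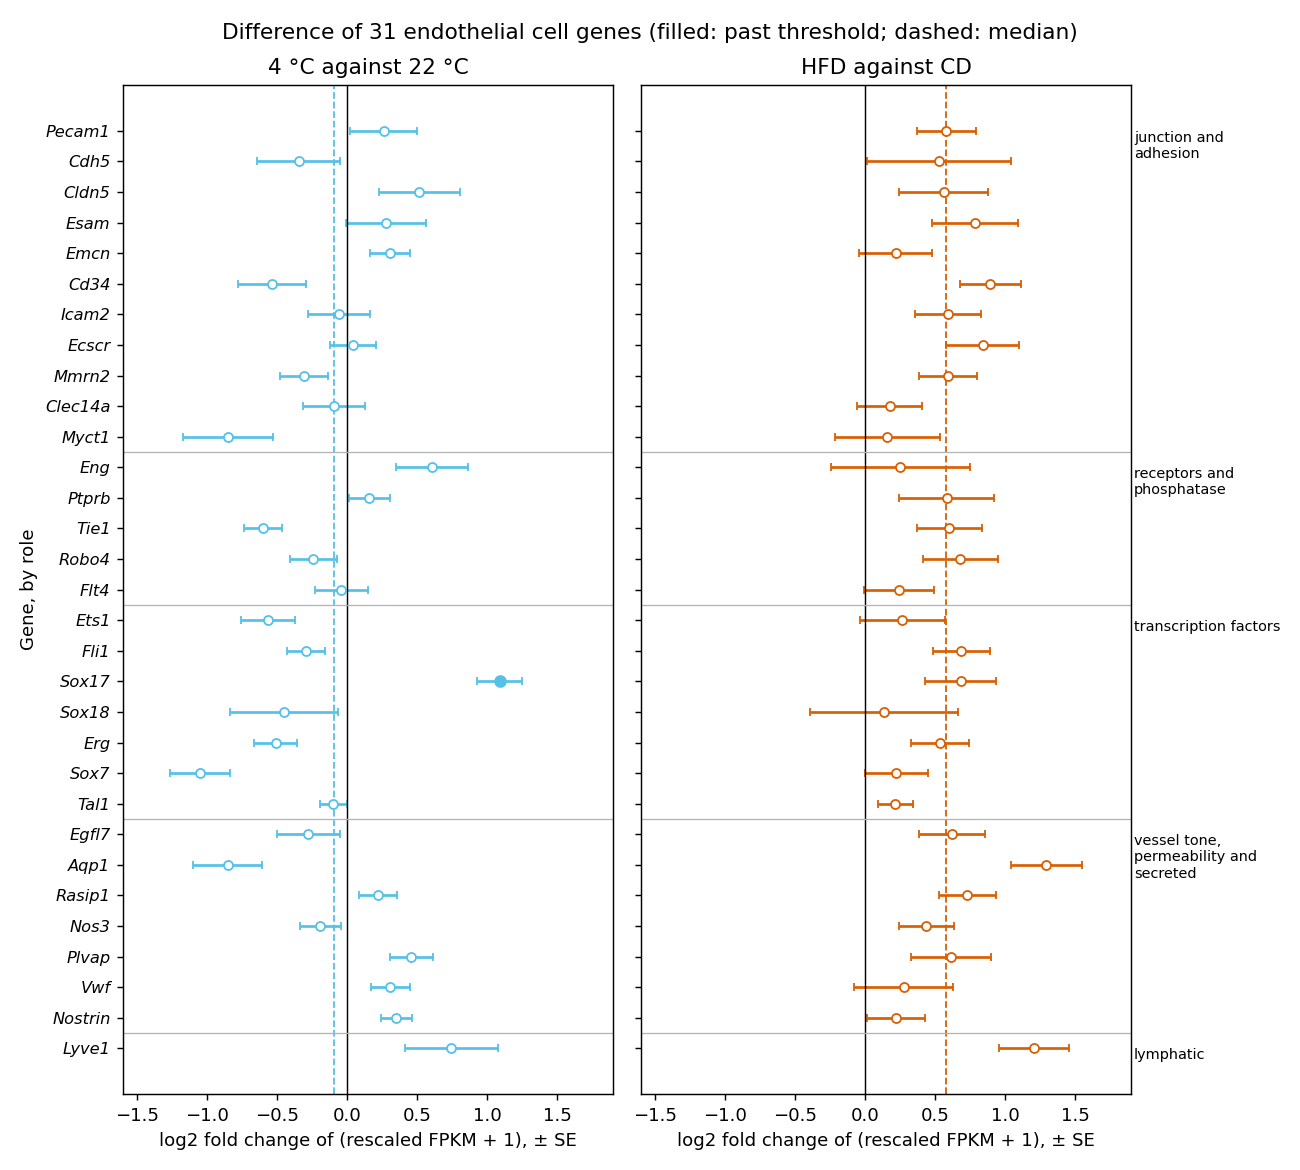
Log2 fold change of rescaled FPKM + 1 (points, with SE bars) of the 31 endothelial cell genes tested, by role, at 4 °C against 22 °C and in HFD against CD, with the median dashed and filled points past the threshold. Sox17 (1.09) is the 1 filled point, the cold medians lie near 0 (-0.10), and all HFD points lie above 0 (median 0.58).

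After 28 weeks of HFD feeding, all 31 endothelial genes tested had a log2 fold change above 0, as did 68.0% of all 17535 genes, and none passed the threshold. No gene at all passed it in this comparison (0%), while 2339 genes had an unadjusted p under 0.05 in limma, the tool used for every fit. With library type (satellite-high or satellite-low) as a covariate, 484 genes passed, among them Aqp1 (adjusted p = 0.0211) and Lyve1 (adjusted p = 0.0479) of the 31. The median of the 31 genes was 0.58 on the log2 scale, and that of all genes 0.09. In both HFD libraries, 18 of the 31 were higher than in both CD libraries, against 33.3% of all genes, and none was lower in both, against 10.6%. An unadjusted p under 0.05 upward was found for 15 of the 31 and for 10.4% of all genes. Aligning the medians of all genes brought the median of the 31 to 0.36, with 24 above 0 and 16 higher in both libraries, and 11.1% of all genes were then higher in both. Without CD replicate 6, which leaves the 3 diet libraries whose identifiers begin alike, the median of the 31 was 0.39, with 24 above 0. The median of messenger RNA genes was then 0.14, and the share of all genes above 0 was not counted.

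Aqp1 had the largest log2 fold change of (rescaled FPKM + 1). It had 35.6 and 26.8 rescaled FPKM in CD and 74.2 and 80.5 in HFD, so that the groups were far apart, at 31.2 ± 6.20 and 77.3 ± 4.43 (SD, n = 2). The log2 fold change was 1.29 (SE 0.25) with an adjusted p of 0.179, and the adjusted p ranged from 0.0211 to 0.744 over the alternatives. Aqp1 passed the threshold with library type as a covariate, with all 8 libraries in 1 fit and without CD replicate 6. With a pseudocount of 0.1 the log2 fold change of Lyve1 (1.60) exceeded that of Aqp1 (1.32). For Aqp1 the difference was 1.43 between the satellite-high libraries and 1.15 between the satellite-low ones.

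Among the junction and adhesion genes, Cd34 and Ecscr led. Cd34 had 8.24 and 6.61 in CD and 14.2 and 14.9 in HFD (log2 fold change 0.89, SE 0.22, adjusted p = 0.197). Ecscr, an endothelial surface protein of cell migration on chromosome 18, had 5.55 and 3.68 in CD and 7.92 and 9.97 in HFD (0.84, SE 0.26, adjusted p = 0.268), and it passed the threshold without CD replicate 6 (1.08, adjusted p = 0.049). Pecam1 was higher in both HFD libraries too, at 38.7 ± 0.955 against 25.6 ± 0.19 (SD, n = 2), a log2 difference of 0.58 (SE 0.21, adjusted p = 0.335). Esam (0.78), Mmrn2 (0.59) and Icam2 (0.59) were also higher in both, whereas Cldn5, Cdh5, Emcn, Myct1 and Clec14a overlapped between the diets. Clec14a, a lectin-like receptor for Mmrn2, had 2.94 and 2.03 in CD and 2.69 and 3.11 in HFD (0.17, SE 0.23, adjusted p = 0.835). Myct1 had 1.38 and 2.69 in CD and 3.48 and 1.44 in HFD (0.16, SE 0.38, adjusted p = 0.923), and its replicates were further apart than its groups.

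The receptors Tie1 and Robo4, of which Robo4 stabilizes the vessel barrier, were higher in both HFD libraries by 0.60 and 0.68 on the log2 scale. Ptprb, the phosphatase that counteracts Tek and Cdh5 phosphorylation (0.58), Eng (0.25) and Flt4 (0.24) overlapped between the diets. Of the transcription factors, Fli1 (0.69), Sox17 (0.68), Erg (0.53) and Tal1 (0.21) were higher in both HFD libraries. Fli1 had 6.28 and 5.61 in CD and 9.66 and 10.7 in HFD, and it is made in blood cells as well as in endothelium. Tal1 had 0.504 and 0.497 in CD and 0.731 and 0.753 in HFD (SE 0.12, adjusted p = 0.545). Sox18 had 1.67 and 5.24 in CD and 5.59 and 2.04 in HFD, the smallest difference of the 31 at 0.13 (SE 0.53, adjusted p = 0.960). Sox7 (0.22) and Ets1 (0.26) overlapped as well. With median centring Tal1 turned to -0.088 and Sox7 to -0.052.

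Beside Aqp1, the genes of vessel tone, permeability and secretion that were higher in both HFD libraries were Rasip1, which organizes the vessel lumen (0.73), Egfl7 (0.62), Plvap (0.61) and Nos3 (0.44). Rasip1 had 1.77 and 1.98 in CD and 3.80 and 3.72 in HFD, with an SE of 0.20 and an adjusted p of 0.238. Nos3 had 1.56 and 1.75 in CD and 2.72 and 2.46 in HFD. Vwf, the clotting glycoprotein that platelets carry too (0.27), and Nostrin (0.22) overlapped between the diets. With 1 library left out the log2 difference in HFD ran from 0.40 to 1.16 for Esam, 0.39 to 0.79 for Icam2, 0.39 to 0.97 for Robo4, 0.14 to 1.03 for Ptprb, 0.26 to 0.96 for Plvap, 0.070 to 0.37 for Nostrin and 0.0091 to 0.43 for Sox7. Medians by role were 0.58 for junction and adhesion, 0.58 for receptors and phosphatase, 0.26 for transcription factors and 0.61 for vessel tone, permeability and secretion.

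Of the 3 lymphatic genes, Lyve1 had 1.56 and 1.45 rescaled FPKM in CD and 5.91 and 3.82 in HFD. The groups were separate, with a log2 difference of 1.20 (SE 0.25). The adjusted p was 0.179, and 0.0245 to 0.703 over the alternatives. Flt4 had 0.319 and 0.928 in CD and 1.19 and 0.613 in HFD and overlapped. Prox1 was highest in CD replicate 8 (0.248) and under 0.1 in the other 7 libraries. The lymphatic genes outside the 32 were above 0 (6 of 6 tested, median 0.33), as were 68.0% of all genes. Of the 6, 3 were higher in both HFD libraries, against 33.3% of all genes. Itga9 was at 0.81, Pdpn at 0.77 and Mmrn1 at 0.49 on the log2 scale. Vegfc (0.18), Nrp2 (0.16) and Reln (0.06) were lowest, and none of the 6 passed the threshold.

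**Figure D3:**
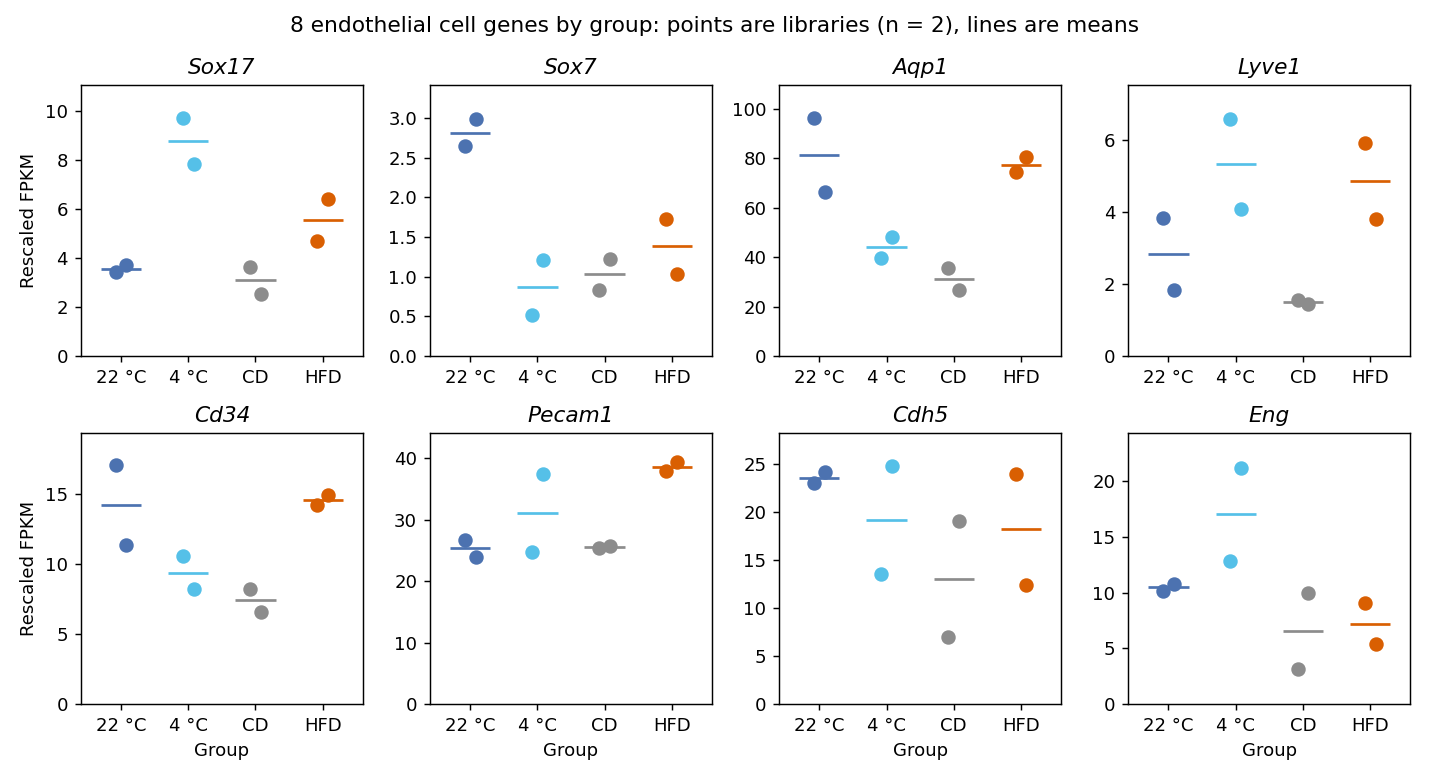
Rescaled FPKM of Sox17, Sox7, Aqp1, Lyve1, Cd34, Pecam1, Cdh5 and Eng by group, with points for libraries (n = 2) and lines for group means, each panel starting at 0. Sox17 is highest at 4 °C (9.72 and 7.85), Aqp1 is lower at 4 °C and higher in HFD (74.2 and 80.5) than in CD (35.6 and 26.8), and the replicates of Cdh5 and Eng lie far apart in CD.

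The related endothelial lists also stood above the median of all genes in HFD, with none of their genes past the threshold. Some passed it in alternatives, Stab1 in 5, Mcam in 4, Lrg1 and Ramp2 in 3 each, and Adm, Pgf, Pdpn and Vcam1 in 1 each. In this comparison 68.0% of all genes were above 0 and 33.3% higher in both HFD libraries. Medians were 0.36 for the 25 angiogenic receptors and ligands tested (24 above 0, 14 higher in both HFD libraries), 0.45 for the 28 other pan-endothelial and capillary genes (28 above 0, 17 higher in both) and 0.39 for the 14 arterial and venous genes (11 above 0, 9 higher in both). Stab1, a scavenger receptor of sinusoidal endothelium and of macrophages, had 4.48 and 3.30 in CD and 15.3 and 13.6 in HFD (log2 fold change 1.67, SE 0.23, adjusted p = 0.137). Mcam had 9.24 and 12.1 in CD and 26.1 and 32.3 in HFD (1.38, SE 0.24, adjusted p = 0.176), and it fell in the cold. Ramp2, which forms the adrenomedullin receptor with Calcrl, had 7.57 and 11.1 in CD and 28.9 and 21.5 in HFD (1.35, SE 0.28, adjusted p = 0.179), and its ligand Adm had 0.289 and 0.353 in CD and 1.88 and 1.33 in HFD (0.97, SE 0.17, adjusted p = 0.176). Pgf (1.05), Rgcc (0.98), Lrg1 (1.15), Vcam1 (0.89) and Icam1 (0.69) were higher in both HFD libraries, and with 1 library left out Pgf ran from 0.43 to 1.66 and Rgcc from 0.47 to 1.49. The lowest were Kdr (-0.14), Efnb2 (0.08) and Vegfa (0.09) among receptors and ligands, Exoc3l2 (0.0035), Ramp3 (0.03) and Cyyr1 (0.06) among capillary genes, and Heyl (-0.44), Hey1 (-0.09) and Selp (-0.05) among arterial and venous genes. Kdr had 3.80 and 17.0 in CD and 11.5 and 4.67 in HFD. Heyl had 2.14 and 4.82 in CD and 2.83 and 1.62 in HFD, and both genes overlapped between the diets.

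Markers of other cell types also differed between these libraries. Of all genes tested, 68.0% were above 0, 33.3% were higher in both HFD libraries and 10.6% were lower in both. The macrophage list had a median log2 fold change of 1.45, with 12 of 12 above 0 and 9 higher in both HFD libraries, and its sum was 79.1 to 144 rescaled FPKM in CD and 333 to 352 in HFD. The fibroblast and progenitor list, which shares Cd34 with the 32 genes, had a median of 0.71 (9 of 12 higher in both) and sums of 131 to 182 and 273 to 337. Pericyte and smooth muscle markers had a median of 0.47 (6 of 12 higher in both, sums 111 to 113 and 148 to 162), and 8 of 8 proliferation markers were higher in both (median 0.45, sums 1.96 to 3.58 and 7.18 to 9.94). Of the erythroid list 4 genes were tested (median 0.40, sums 122 to 143 and 197 to 341). Of the platelet list 6 were tested (median 0.05), and its sum, 9.52 to 14.9 in CD and 46.0 to 47.6 in HFD, was mostly Pf4, which had 12.3 and 6.72 in CD and 45.3 and 41.9 in HFD. Lymphocyte and pan-leukocyte markers had a median of 0.07 (sums 5.11 to 10.9 and 18.4 to 24.2). The 11 skeletal muscle markers were below 0 (median -3.81, 10 lower in both HFD libraries), and their sums were 551 to 1988 in CD and 35.3 to 218 in HFD, and the brown adipocyte list had a median of -0.16. No list had a marker at 0 in all 4 libraries. Aqp1, Pecam1, Lyve1, Stab1, Cd34, Fli1, Icam2, Ets1, Tal1 and Vwf, among others, are made by blood, immune or stromal cells besides endothelium, and the part of any of these cells in the endothelial differences was not tested.

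**Figure D4:**
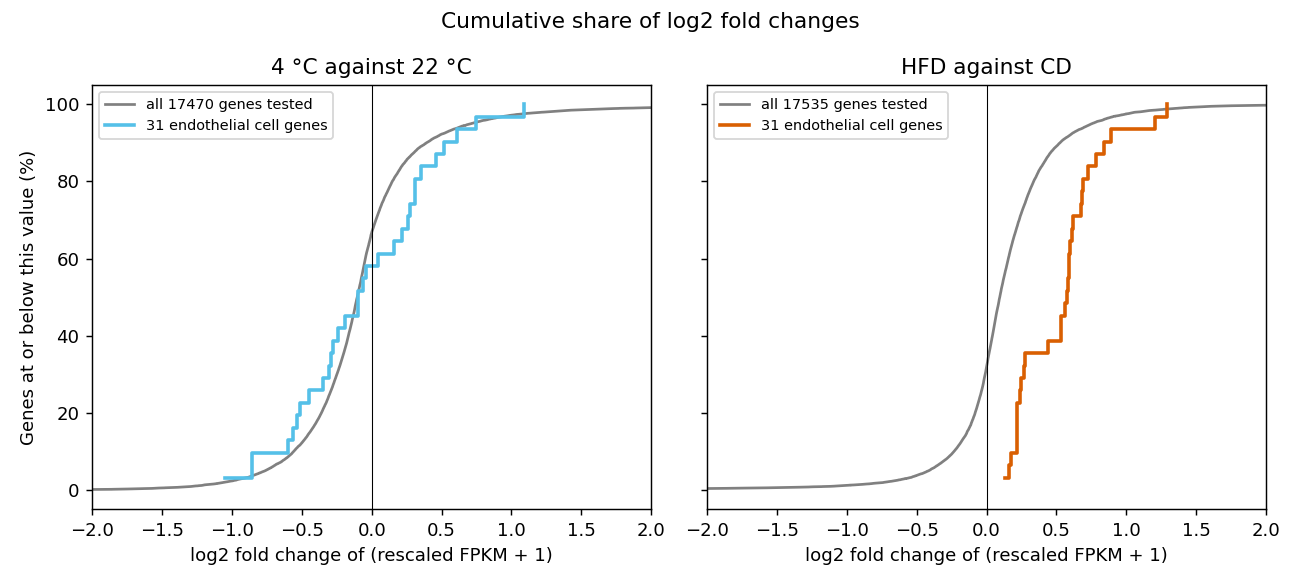
Cumulative share (%) of log2 fold changes of rescaled FPKM + 1 for the 31 endothelial cell genes (coloured steps) and for all genes tested (grey), at 4 °C against 22 °C (17470 genes) and in HFD against CD (17535 genes). In the cold both medians are -0.10 and the endothelial genes reach from Sox7 (-1.05) to Sox17 (1.09), and the endothelial curve lies to the right in HFD (0.58 against 0.09).

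The endothelial genes did not vary as a block within a diet group. Between CD replicates 6 and 8, Eng had 3.18 and 9.93 rescaled FPKM, Cdh5 7.02 and 19.0, Sox18 1.67 and 5.24, and Vwf 0.625 and 2.01. Emcn went the other way with 14.6 and 10.1, as did Ecscr with 5.55 and 3.68 and Aqp1 with 35.6 and 26.8. In HFD the satellite-high replicate 2 against replicate 6 had 9.06 and 5.41 for Eng, 23.9 and 12.4 for Cdh5, and 5.59 and 2.04 for Sox18, while Emcn had 13.0 and 15.7. Across the 31 genes, the log2 difference of the satellite-high minus the satellite-low library in CD and that in HFD had a Pearson r of 0.75 and a Spearman rho of 0.79, and across 9931 messenger RNA genes the r was 0.73. The other pairs of groups gave an r across the 31 genes of -0.51 for 22C and 4C, -0.42 for 22C and CD, -0.17 for 22C and HFD, 0.48 for 4C and CD, and 0.38 for 4C and HFD, where the messenger RNA genes had 0.09 to 0.51. In 4C, 26 of the 31 genes were higher in the satellite-high library, against 13 in 22C and 18 each in CD and HFD. The share of all genes that did so was not counted, so these counts show nothing particular to the endothelial genes. The points share library type within each diet, genes are not independent replicates, and the r is a description. Cldn5 left the pattern, higher in the satellite-high library of CD (0.41) and lower in that of HFD (-0.73). Across the 31 genes the SD of these differences was 0.55 in CD, 0.41 in HFD, 0.37 in 4C and 0.28 in 22C. Across the 9931 messenger RNA genes it was 0.60 in CD, 0.45 in HFD, 0.38 in 4C and 0.37 in 22C. Within the satellite-high libraries alone 29 of the 31 genes were above 0 in HFD against CD (median 0.43), and within the satellite-low libraries 31 of 31 (median 0.62), as values of 1 library against 1. With both library types 68.0% of all genes were above 0, and their share within 1 type was not counted.

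**Figure D5:**
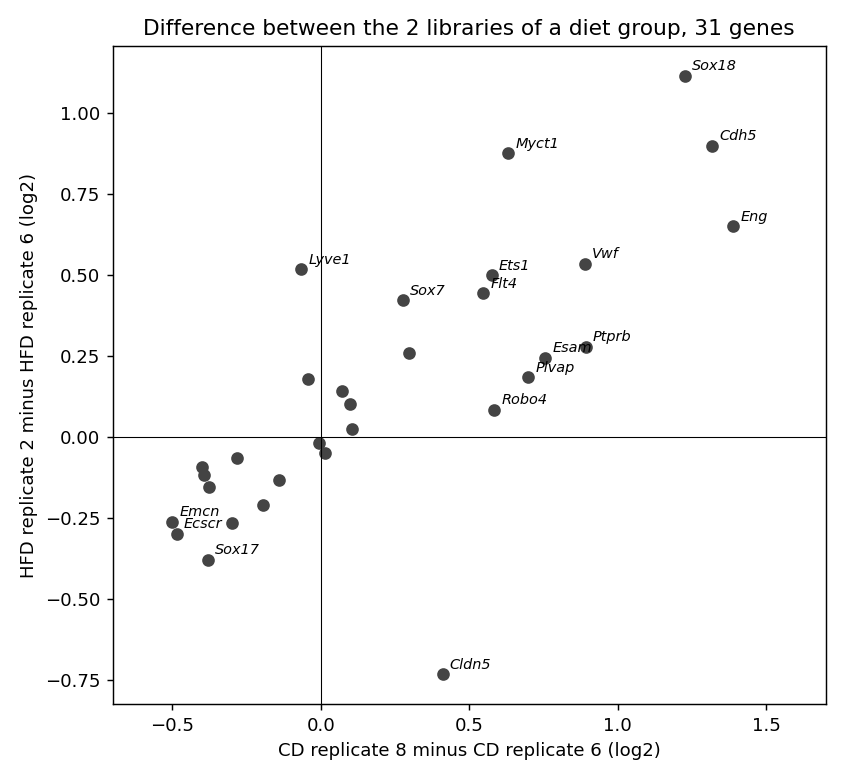
Log2 difference between the 2 libraries of a group for 31 endothelial cell genes, CD replicate 8 minus 6 (horizontal) against HFD replicate 2 minus 6 (vertical), 1 point per gene. Eng (1.39 in CD), Cdh5 (1.32) and Sox18 (1.23) lie at the upper right, Emcn (-0.50) and Ecscr (-0.49) at the lower left, and Cldn5 lies at -0.73 in HFD and 0.41 in CD.

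Set side by side, the 2 comparisons have no library in common. Lower in both cold libraries and higher in both HFD libraries were 9 of the 31 genes, namely Aqp1, Cd34, Egfl7, Erg, Fli1, Mmrn2, Nos3, Robo4 and Tie1, and 16.1% of the 16552 genes tested in both comparisons had this order. With FPKM as deposited the cold sign of Egfl7, Fli1, Mmrn2, Nos3 and Robo4 turned, so this order did not hold for those 5. With the sum of all autosomal genes 4 of the 31 were lower in both cold libraries, so the order did not hold for all 9. Higher in both cold libraries and in both HFD libraries were 4 genes, Lyve1, Plvap, Rasip1 and Sox17, against 5.55% of all genes. For Aqp1 the log2 fold changes were -0.85 in the cold and 1.29 in HFD, for Tie1 -0.60 and 0.60, and for Sox17 1.09 and 0.68. The difference between the 2 contrasts was not tested, and of these values the cold change of Sox17 passed the threshold.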

How the data were processed

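RNA of BAT was depleted of rRNA and sequenced by the authors as directional libraries with paired reads of 100 bases. Per the methods, reads were mapped to GRCm38 (Ensembl release 87) with TopHat2 2.0.10 and assembled with Cufflinks (2.1.1 in the methods, 2.2.1 in the submitters' processing notes), and the authors tested counts with DESeq2. The deposited table holds 1 FPKM value per gene and library, and these FPKM were used here, since the table holds no counts. The 32 genes and the other gene lists were chosen with earlier results of these data known. FPKM were rescaled so that autosomal mRNA and lncRNA genes summed to the same total in each library, and X, Y and mitochondrial genes were left out. Genes with at least 0.1 FPKM in 2 of 4 libraries were tested with limma 3.58.1 (R 4.3.3, lmFit and eBayes with an intensity trend) on log2(rescaled FPKM + 1), with no covariate and Benjamini-Hochberg adjustment over all genes. The fit was run on simulated data, drawn as independent normal values without library types, which cannot show how it performs on these libraries. The threshold was an adjusted p under 0.05 together with a change of 2-fold or more. Given in full were genes past the threshold, the 6 most abundant, the 4 with the largest difference in each direction of a comparison (in HFD, where no gene was below 0, the 4 smallest), and the lymphatic genes. From the related lists, genes past the threshold and the 3 largest differences in each direction were named. Coordinates are those of GRCm38, gene models those of GENCODE M21 and promoters those of RefSeq. Alternatives covered scaling, pseudocount, filter, library type, a fit of all 8 libraries, the trend and each library left out. The scaling without satellite-repeat genes and Ucp1, and library type in the fit of all 8 libraries, were chosen after seeing the data.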

Additional observations from a re-analysis of the deposited data

How the results depend on the processing

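No pairing by replicate number was possible because 22C and 4C share no replicate number and CD and HFD share 1 number. Libraries were matched instead by library type, which the data and not the labels give, as a covariate. In the cold, 583 genes passed the threshold, 703 with library type as a covariate, 252 with FPKM as deposited, 1081 with a pseudocount of 0.1, 0 without a filter on low values (5978 at an unadjusted p under 0.05) and 0 to 60 without 1 library. Of the endothelial genes 1 passed, 0 with FPKM as deposited, the sum of all autosomal genes, no filter or any 1 library left out (0 to 0), and 2 with all 8 libraries in 1 fit, with or without library type. Their median of -0.10 was 0.17 with FPKM as deposited, 0.077 within the satellite-high libraries and -0.28 to 0.14 without 1 library. With FPKM as deposited 23 were above 0, 17 higher and 6 lower in both cold libraries (37.9% and 20.6% of all genes), and with the sum of all autosomal genes 4 were higher and 4 lower in both (12.9% and 27.9%). Signs turned with FPKM as deposited for Cdh5 (0.052), Clec14a (0.17), Egfl7 (0.14), Fli1 (0.059), Flt4 (0.19), Icam2 (0.29), Mmrn2 (0.044), Nos3 (0.15), Robo4 (0.11) and Tal1 (0.028), with median centring for Icam2 (0.031), and with quantile normalization for Clec14a (0.062), Flt4 (0.11), Icam2 (0.050) and Tal1 (0.012). Without 1 library the ranges crossed 0 for Cdh5 (-0.76 to 0.068), Clec14a (-0.37 to 0.18), Ecscr (-0.079 to 0.16), Esam (-0.066 to 0.62), Flt4 (-0.28 to 0.19), Icam2 (-0.29 to 0.17), Pecam1 (-0.030 to 0.55), Sox18 (-0.98 to 0.085) and Tal1 (-0.20 to 0.0021).

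In HFD against CD, 0 genes passed, 12 with FPKM as deposited, 31 with median centring, 484 with library type as a covariate, 248 with all 8 libraries, 317 with both, and 0 to 743 without 1 library (743 without CD replicate 6). Endothelial genes past the threshold were 2 with library type (Aqp1 and Lyve1), 1 with all 8 libraries (Aqp1), 1 with both, and 0 to 3 without 1 library (Aqp1, Ecscr and Lyve1 without CD replicate 6). Their median of 0.58 was 0.36 with median centring, 0.39 with quantile normalization and 0.39 to 0.60 without 1 library. Signs turned with median centring for Clec14a (-0.077), Flt4 (-0.040), Myct1 (-0.088), Nostrin (-0.061), Sox18 (-0.088), Sox7 (-0.052) and Tal1 (-0.088), and with quantile normalization for Clec14a (-0.038), Myct1 (-0.038) and Sox18 (-0.076). Without 1 library the ranges crossed 0 for Cdh5 (-0.13 to 1.19), Clec14a (-0.014 to 0.36), Emcn (-0.032 to 0.47), Eng (-0.45 to 0.94), Ets1 (-0.023 to 0.55), Flt4 (-0.035 to 0.51), Myct1 (-0.28 to 0.60), Sox18 (-0.48 to 0.75) and Vwf (-0.17 to 0.72). The cause of these shifts was not tested, except that leaving out a library leaves 3 samples, the lone one being assumed to vary like the other group. FPKM as deposited and the autosomal sum put the median of mRNA genes at 0.21 and -0.13 in the cold, and at 0.29 and 0.16 in HFD. Prox1, with about 8 to 142 fragments per library, missed the filter.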
